A study of Mus musculus with 8 samples.

Results

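The 10 genes described here control the passage of a cell from G1 into S phase: the D cyclins Ccnd1, Ccnd2 and Ccnd3, their kinases Cdk4 and Cdk6, the pocket proteins Rb1, Rbl1 and Rbl2, and the transcription factors E2f1 and E2f2. They were taken by gene symbol, and all 10 were found among the 23361 genes of the authors' deposited table. Poly(A) RNA had been sequenced from established lines of mouse acute myeloid leukaemia (strain 129S6), grown from bone marrow cells that carry the fusion oncogene MLL-AF9. One line was Cdc73fl/fl CreERT2 (here "floxed") and the other Cdc73 +/+ CreERT2 (here "wild type"). The Cdc73 protein belongs to the PAF1 complex, a partner of elongating RNA polymerase II. All cells of both lines received 7.5 nM 4-hydroxytamoxifen (4OHT), which lets the CreERT2 recombinase enter the nucleus, for 24 or 48 h, so the controls carry the oncogene, the recombinase and the drug as well. The 8 libraries form 4 groups of 2 biological duplicates. Genotype and line coincide, and cells without 4OHT were not analysed here, so a difference that was there before 4OHT cannot be told apart from one that followed it.

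D cyclins bind and activate Cdk4 and Cdk6 in response to growth signals. The active kinases phosphorylate the pocket proteins, which otherwise hold E2F factors in a repressive state. Released E2F factors then switch on the genes of DNA replication, and INK4 and CIP/KIP inhibitors oppose the kinases. In blood cells Ccnd3, Ccnd2 and Cdk6 are known as prominent members of this pathway, and Cdk6 is a known target of MLL fusion proteins.

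The authors' table gives 1 FPKM value per gene and group, with the duplicates already combined. FPKM (fragments per kilobase of transcript and unit of library size) corrects for transcript length and library size, so levels of different genes can be compared, while a change in total RNA per cell is not seen. Fewer cells that express a gene and less of its RNA per cell cannot be told apart either. Values below carry no SD, because the table holds no value per library. A gene is said to be called where the authors' deposited q-value for floxed against wild type is under 0.05. Log2 differences are floxed minus wild type of log2(FPKM + 1), a scale on which low genes change less than their ratio, and folds are ratios of the FPKM values.

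The excision target was low in floxed cells. At 24 h Cdc73 stood at 26.2 FPKM (wild type) and 5.96 FPKM (floxed), and at 48 h at 26.9 and 5.45, for which the authors' deposited table has q = 0.000449 and q = 0.000165. Of 10 myeloid markers, 9 were listed under the symbols used, all at 7.49 FPKM or more in every group. At 24 h 1 of the 9 was called higher and 1 lower (22.2%, against 27.6% of all tested genes, as defined below). Mpo, the myeloperoxidase of primary granules, was then 1.73-fold higher and Cebpa, a myeloid transcription factor, 1.93-fold lower. At 48 h 5 were called higher and 2 lower (77.8%), with a median log2 difference of 0.60. Lyz2, the lysozyme of myeloid cells, then had 587.2 FPKM (wild type) and 3333 FPKM (floxed), the integrin gene Itgam 45.8 and 100.1, and the elastase gene Elane 3587 and 1745. Elane lies in a locus entry that holds 46 genes, so reads there may have been split between genes. The other marker called lower at 48 h was Mpo, at 1368 FPKM (wild type) and 1011 FPKM (floxed, authors' q = 0.0329), opposite to 24 h. Cebpa had no call at 48 h, at 74.3 and 59.7 FPKM (authors' q = 0.0922). Of 8 lymphoid markers, only Cd79b reached 1 FPKM, and Cd3e and Pax5 were at 0 in all groups. The lymphoid list summed to 0.931 FPKM (wild type) and 8.38 FPKM (floxed) at 24 h, and to 1.10 and 6.21 at 48 h, nearly all of it from Cd79b. Of 7 erythroid and megakaryocyte markers, 3 reached 1 FPKM in at least 1 group, while Hbb-b1 was at 0 in all groups. Their sum was 2.32 and 3.13 FPKM at 24 h, and 1.72 and 13.6 at 48 h, of which the platelet chemokine gene Pf4 made up 0.977 and 10.8. The part of these markers in the results below was not tested.

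Within this pathway, floxed cells had less Ccnd2 and E2f1 RNA and more Ccnd3 and E2f2 RNA than wild type cells at both times, and less Cdk4, Cdk6 and Rbl1 and more Rb1 and Ccnd1 at 48 h. At 24 h, 4 of the 10 genes were called, 2 higher and 2 lower, which is 40% against 27.6% of the 10987 expressed genes the authors tested (expressed means 1 FPKM or more in at least 1 group). At 48 h, 9 of the 10 were called, 4 higher and 5 lower, or 90% against 56.8% of 11039 genes. All 10 kept their direction from 24 to 48 h, and in 9 the difference was larger at 48 h. The median absolute log2 difference of the 10 genes was 0.33 at 24 h and 0.85 at 48 h, beside 0.21 and 0.47 over all 11158 expressed genes. The change between times was not tested, for want of values per library.

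**Figure D1:**
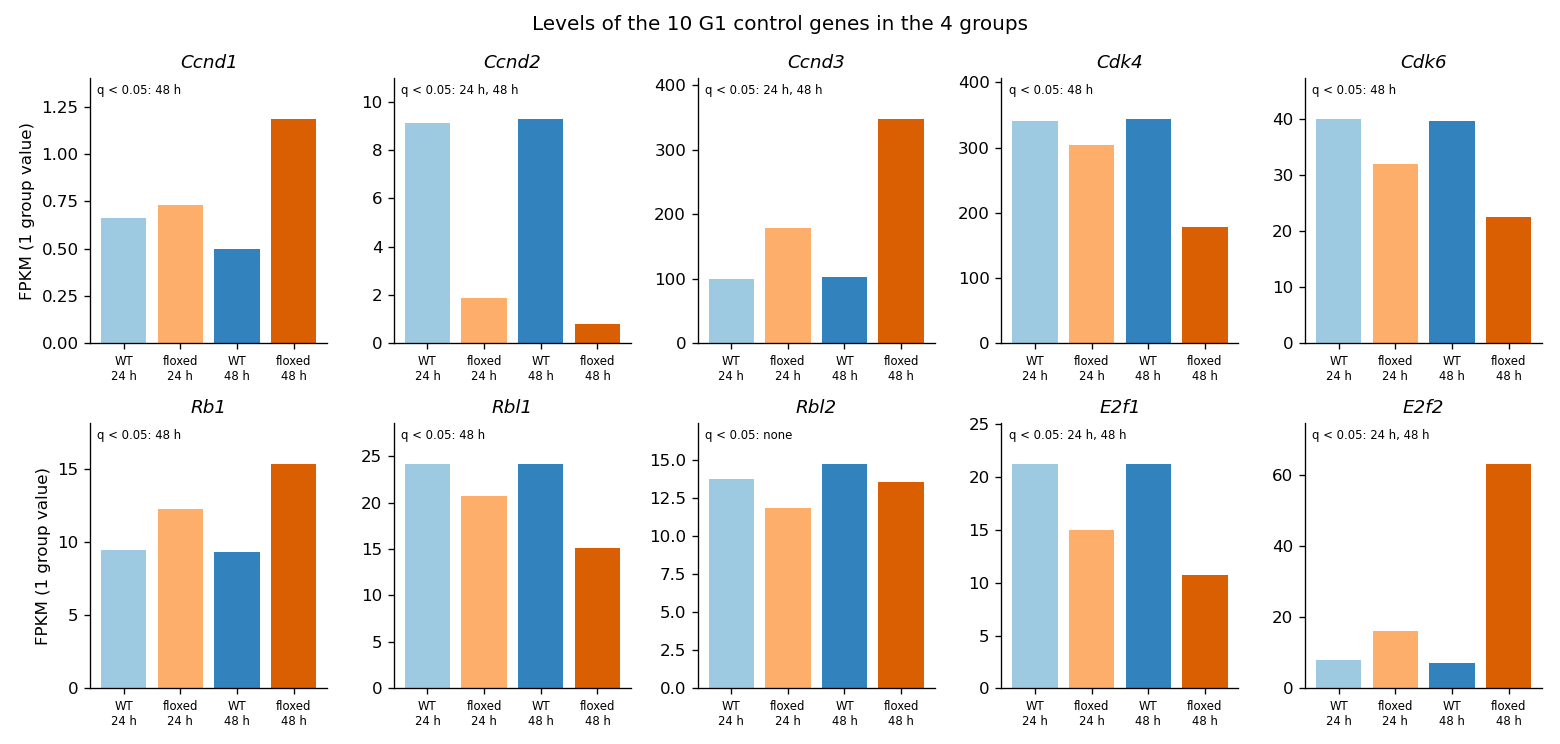
FPKM of each of the 10 genes in the 4 groups (bars, 1 group value each, linear axes from 0 with a scale of their own per gene), with the times at which the authors' q was under 0.05. The wild type bars at 24 and 48 h are close to each other except for Ccnd1 (0.661 and 0.501) and E2f2 (8.11 and 7.03), Ccnd2 falls to 0.794 and E2f2 reaches 63.1 in floxed cells at 48 h, and Rbl2 has no call at either time.

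The D cyclins moved in opposite directions. Ccnd2, a D cyclin induced by growth factors (chr6:127125162-127152193, minus strand, mm10), had 9.12 FPKM (wild type) and 1.86 FPKM (floxed) at 24 h, and 9.30 and 0.794 at 48 h. Both floxed values lie below both wild type values, at 20.4% and 8.54% of them. The log2 difference was -1.82 at 24 h and -2.52 at 48 h (authors' q = 0.000449 and 0.000165). These are the smallest q-values their table holds at each time, and 1328 genes at 24 h and 3684 genes at 48 h have them. Of the expressed genes, 1.57% had a larger absolute log2 difference at 24 h and 1.65% at 48 h.

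Ccnd3, the D cyclin that predominates in these cells (chr17:47505051-47599691, plus strand), had 99.7 FPKM (wild type) and 179.6 FPKM (floxed) at 24 h, and 102.2 and 348.2 at 48 h. The floxed level was 180.1% of the wild type level at 24 h and 3.41 times that level at 48 h (authors' q = 0.000449 and 0.000165). The log2 differences were 0.84 and 1.76. Ccnd1, the D cyclin best known from epithelial and mesenchymal cells (chr7:144929931-144939925, minus strand), was close to the 1 FPKM limit throughout, at 0.661 and 0.734 FPKM at 24 h and at 0.501 and 1.19 at 48 h. It had no call at 24 h (authors' q = 0.683) and was called higher at 48 h (authors' q = 0.000165), with a log2 difference of 0.54.

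Because FPKM is per length, the 3 D cyclins can be added. The wild type sum was 109.5 FPKM and the floxed sum 182.2 FPKM at 24 h, and the sums were 112.0 and 350.2 at 48 h. Ccnd3 made up 91.1% of it in wild type cells at 24 h and 91.3% at 48 h, and 98.6% and 99.4% in floxed cells. The share of Ccnd2 was 8.33% and 8.30% in wild type cells and 1.02% and 0.227% in floxed cells. The total of D cyclin RNA was thus higher in floxed cells although Ccnd2 was lower, and at 48 h Ccnd1 stood above Ccnd2 there.

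Both kinases were lower at 48 h and neither was called at 24 h. Cdk4 (chr10:127063534-127067920, plus strand) was the most abundant of the 10 genes in wild type cells, at 340.9 FPKM against 304.1 in floxed cells at 24 h (authors' q = 0.425), and at 344.1 against 177.8 at 48 h (authors' q = 0.000165). At 48 h it was 1.94-fold lower, with a log2 difference of -0.95. Cdk6 (chr5:3341485-3531008, plus strand) stood at 40.1 and 32.1 FPKM at 24 h (authors' q = 0.0730) and at 39.7 and 22.6 at 48 h (authors' q = 0.000165), where it was 1.75-fold lower. The log2 difference of Cdk6 was -0.31 at 24 h and -0.78 at 48 h.

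The balance between the kinases was similar in the 4 groups, while their balance with the cyclins was not. Cdk4 held 89.5% (wild type) and 90.5% (floxed) of the summed Cdk4 and Cdk6 FPKM at 24 h, and 89.7% and 88.7% at 48 h. The summed D cyclin FPKM was 0.287 and 0.292 times the summed kinase FPKM in wild type cells at 24 and 48 h. In floxed cells it was 0.542 times at 24 h and 1.75 times at 48 h. In level, Cdk4 ranked above Ccnd3 in every group except floxed cells at 48 h, where Ccnd3 ranked above Cdk4. These ratios are of RNA and come from 1 value per group, with no test.

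Of the pocket proteins, Rb1 was higher and Rbl1 lower in floxed cells at 48 h. Rb1, the retinoblastoma tumour suppressor (chr14:73183673-73325822, minus strand), stood at 9.46 and 12.3 FPKM at 24 h (authors' q = 0.0535) and at 9.36 and 15.4 at 48 h (authors' q = 0.000595), where it was 1.64-fold higher. Rbl1, which encodes p107 (chr2:157145893-157204534, minus strand), stood at 24.2 and 20.7 FPKM at 24 h (authors' q = 0.266) and at 24.1 and 15.1 at 48 h (authors' q = 0.000457), where it was 1.60-fold lower. Rbl2, which encodes p130, the pocket protein of resting cells (chr8:91070057-91123844, plus strand), stood at 13.8 and 11.9 FPKM at 24 h and at 14.8 and 13.6 at 48 h, with no call (authors' q = 0.342 and 0.613). A missing call does not show that Rbl2 was the same in both lines, and its log2 difference was -0.20 at 24 h and -0.11 at 48 h.

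The sum of the 3 pocket proteins differed less than its make-up. It was 47.4 FPKM (wild type) and 44.9 FPKM (floxed) at 24 h, and 48.2 and 44.0 at 48 h. Rb1 held 20.0% and 19.4% of it in wild type cells and 27.4% and 34.9% in floxed cells. Rbl1 held 51.0% and 50.0% in wild type cells, and 46.1% and 34.2% in floxed cells. In floxed cells at 48 h, Rb1 and Rbl1 were at nearly the same level, with a ratio of 1.02, against 0.388 in wild type cells.

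E2f1 and E2f2 exchanged rank. E2f1, an activator of replication genes (chr2:154559407-154569892, minus strand), had 21.3 FPKM (wild type) and 15.0 FPKM (floxed) at 24 h, and 21.2 and 10.7 at 48 h. The floxed level was 1.42-fold lower at 24 h (authors' q = 0.00277) and 50.6% of the wild type level at 48 h (authors' q = 0.000165), with log2 differences of -0.48 and -0.92. E2f2, a second activator of the same subfamily (chr4:136172394-136196057, plus strand), stood at 8.11 and 16.2 FPKM at 24 h and at 7.03 and 63.1 at 48 h. The floxed level was 200.1% of the wild type level at 24 h, a log2 difference of 0.92, and 8.99-fold higher at 48 h (authors' q = 0.000449 and 0.000165), where 1.07% of the expressed genes had a larger absolute log2 difference at 48 h.

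E2f1 held 72.4% and 75.1% of the summed E2f1 and E2f2 FPKM in wild type cells at 24 and 48 h, and 47.9% and 14.5% in floxed cells. The E2f1 level was 2.62 and 3.02 times that of E2f2 in wild type cells, whereas in floxed cells E2f2 was 1.09 times E2f1 at 24 h and 5.87 times at 48 h. The sum was 29.4 FPKM (wild type) and 31.2 FPKM (floxed) at 24 h, and 28.3 and 73.9 at 48 h. At 24 h the sum was thus similar in both lines, with a lower share of E2f1, and at 48 h it was higher through E2f2.

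**Figure D2:**
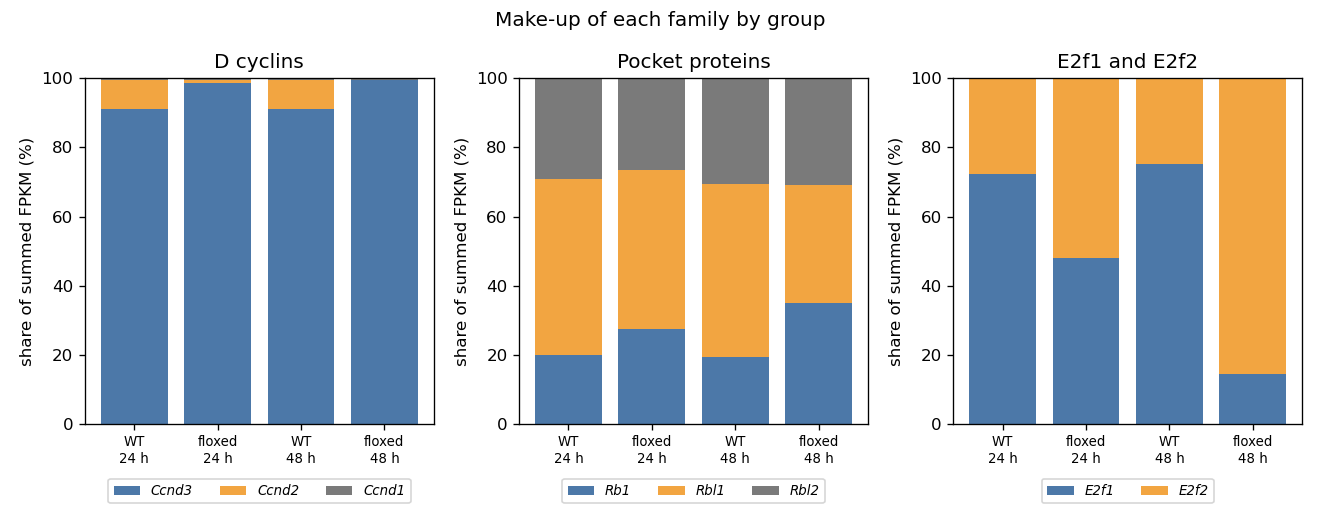
Share of each gene in the summed FPKM of its family (percent, stacked bars, 1 bar per group) for the D cyclins, the pocket proteins and the pair E2f1 and E2f2. Ccnd3 reaches 99.4% of the D cyclins, Rb1 reaches 34.9% of the pocket proteins and E2f2 reaches 85.5% of the E2F pair in floxed cells at 48 h.

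Wild type cells gave nearly the same levels of the more abundant genes at both times. For the 6 genes at 10 FPKM or more in wild type cells at 24 h, the 48 h level was 0.990 to 1.07 times the 24 h level. Over all 10 genes that ratio ran from 0.757 for the low gene Ccnd1 to 1.07 for Rbl2, with E2f2 at 0.866. In floxed cells it ran from 0.426 for Ccnd2 to 3.89 for E2f2. Over all expressed genes, the median absolute log2 difference between the times was 0.06 in wild type cells (11029 genes above 0 at both times) and 0.32 in floxed cells. Whether the authors scaled both times together is not recorded in the table, so these are values without a test.

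**Figure D3:**
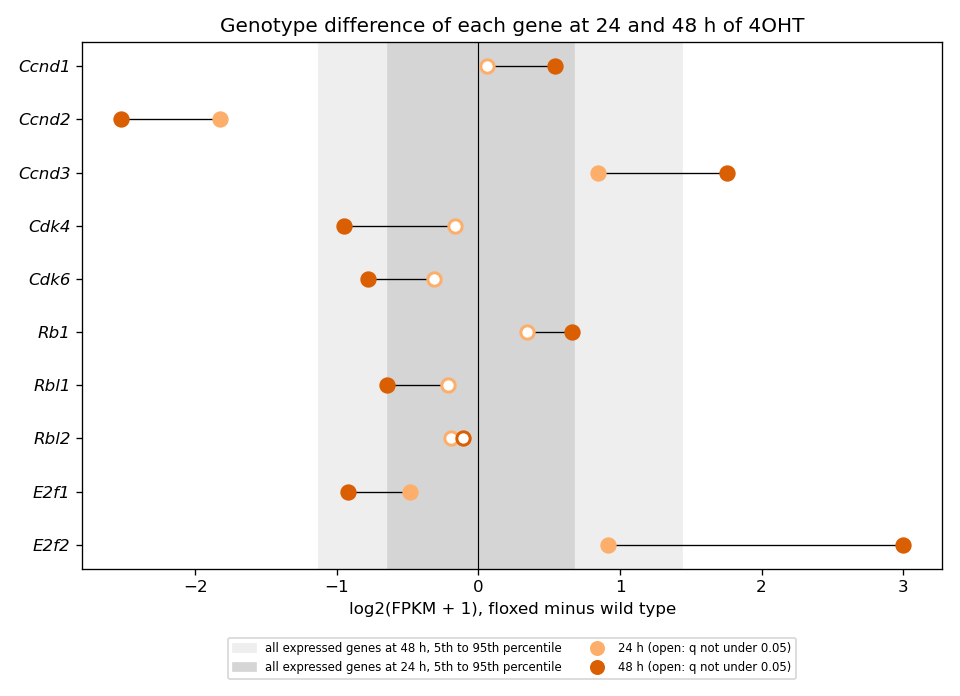
Log2(FPKM + 1) in floxed minus wild type cells for each gene (x axis) at 24 and 48 h, joined by a line (filled points: authors' q under 0.05), with the 5th to 95th percentile of all 11158 expressed genes shaded for each time (-0.64 to 0.68 at 24 h, -1.13 to 1.44 at 48 h). Ccnd2, Ccnd3 and E2f2 lie outside the shaded range of each time, and the other genes lie inside it.

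Of the 10 genes, 5 have a locus entry of their own (Cdk4, Cdk6, Rbl1, E2f1 and E2f2) and 5 share it with another gene, so reads there may have been split between genes. Whether strand was used in counting is not stated by the labels. Ccnd3 shares its entry with Bysl, a ribosome assembly gene on the opposite strand, and 361 exonic bases (14.8% of the exonic bases of Ccnd3 in GENCODE M21) are common to both. Bysl stood at 21.5 and 21.4 FPKM at 24 h and at 19.3 and 16.3 at 48 h, with no call (authors' q = 0.987 and 0.635), far below the level of Ccnd3. Rbl2 shares 418 exonic bases (8.49%) with Aktip on the opposite strand, which stood at 6.60 and 6.82 FPKM at 24 h and at 6.83 and 9.83 at 48 h, with no call. Lpar6, a receptor gene on the opposite strand, lies inside Rb1 and shares no exonic base with it. Lpar6 stood at 3.63 and 5.11 FPKM at 24 h and at 2.96 and 12.6 at 48 h, where it was called higher (authors' q = 0.000165), so it moved with Rb1 at 48 h. The entry of Ccnd2 also holds the antisense gene 9330179D12Rik, which shares no exonic base with Ccnd2 and was at 0.117 FPKM or less in every group. Mir3962 in the entry of Ccnd1 and Mir687 in that of Rb1 were listed at 0 in all groups. GENCODE M21 places Mir3962 at chr1:194822001-194822064, away from Ccnd1 on chromosome 7, so no overlap was computed for this pair.

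RefSeq windows of 250 bases before the start (GRCm38.p6) were found for 7 of the 10 genes, in 9 windows, and 3 windows, of Cdk4, Cdk6 and Rbl1, held a match to the motifs searched. Those of Cdk4 and Rbl1 are printed because their RefSeq start lies within 1 base of the GENCODE M21 start of the gene, while that of Cdk6 does not. The E2F motif was searched as TTTCCCGC, TTTCGCGC, TTTGCCGC and TTTGGCGC, and the E-box bound by Myc and related factors as CACGTG, on both strands, and the motifs do not overlap here. Capitals mark E-boxes in the Cdk4 window (chr10:127063285-127063534, plus strand) and the E2F motif in the Rbl1 window (chr2:157204535-157204784, minus strand).
Cdk4: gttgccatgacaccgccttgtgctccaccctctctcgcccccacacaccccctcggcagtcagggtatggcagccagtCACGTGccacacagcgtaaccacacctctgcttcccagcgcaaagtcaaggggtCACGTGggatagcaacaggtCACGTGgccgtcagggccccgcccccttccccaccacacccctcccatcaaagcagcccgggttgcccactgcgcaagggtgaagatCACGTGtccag
Rbl1: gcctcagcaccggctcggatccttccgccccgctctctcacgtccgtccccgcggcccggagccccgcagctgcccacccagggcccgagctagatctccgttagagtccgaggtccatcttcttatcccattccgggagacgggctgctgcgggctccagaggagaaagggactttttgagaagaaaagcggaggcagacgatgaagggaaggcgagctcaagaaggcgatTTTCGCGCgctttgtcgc

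The Cdk4 window holds 4 E-boxes, at 172, 118, 98 and 11 bases before the start (first base of each match). At least 1 E-box stood in 6.02% of all 32851 RefSeq windows, and 4 or more in 7 windows of 5 genes. The Cdk6 window holds 1 E-box, 220 bases before a RefSeq start that lies 2408 bases inside the GENCODE gene. Myc, which is read here because of this motif and was chosen after its values were seen, had 120.3 FPKM (wild type) and 150.5 FPKM (floxed) at 24 h (authors' q = 0.0696), and 126.4 and 71.2 at 48 h (authors' q = 0.000165). At 48 h Myc, Cdk4 and Cdk6 were all called lower, as were 31.0% of all tested genes, and at 24 h none of them was called. Whether Myc has a part in the levels of Cdk4 or Cdk6 was not tested. Of the 7 genes with a window, Rbl1 was the one with an E2F motif, as TTTCGCGC 18 bases before the start, and 1.86% of all windows hold an E2F motif. Among the S phase genes described below, 7 of 31 windows (26 genes) hold it. The RefSeq start of E2f1 lies 466 bases inside the gene as GENCODE M21 draws it, so its window does not cover the first annotated start. A match describes letters only, and its absence from a window says nothing of a factor.

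Among the other genes of the pathway, CDK inhibitors were called in both directions at 24 h and mostly higher in floxed cells at 48 h. Of 7, 6 were expressed, and 3 were called higher and 2 lower at 24 h (83.3% called, against 13.4% higher and 14.2% lower over all tested genes). At 48 h 5 were called higher and 1 lower (against 25.7% higher and 31.0% lower), and the list's median log2 difference was 0.48 and 1.58 beside -0.01 and -0.06 over all expressed genes. Cdkn1c, which encodes the CIP/KIP inhibitor p57, stood at 1.14 and 6.60 FPKM at 24 h and at 1.09 and 30.03 at 48 h. Cdkn1a, which encodes p21, stood at 44.2 and 99.9 FPKM at 24 h and at 36.5 and 237.8 at 48 h. Cdkn2d, an INK4 inhibitor of Cdk4 and Cdk6, was 3.56-fold higher at 48 h, at 18.2 and 64.8 FPKM. The lower gene at 48 h was Cdkn2a, at 12.3 and 8.07 FPKM, which was also 1.76-fold lower at 24 h. Cdkn2c, another INK4 inhibitor, was called lower at 24 h, at 10.2 and 7.25 FPKM (authors' q = 0.0213), and higher at 48 h, at 10.2 and 19.9 FPKM.

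The partners of the next step were mixed. Of 10 expressed genes among cyclin E, cyclin A, Cdk2 and their activators, 2 were called higher and 0 lower at 24 h, and 2 higher and 2 lower at 48 h, with a median log2 difference of -0.01 and -0.30. The shares called, 20% and 40%, were below the 27.6% and 56.8% of all tested genes. Ccne1, which encodes cyclin E1, was higher at both times, by 1.72-fold and 1.73-fold. Cdk2, the kinase it activates, was higher as well, by 1.40-fold at 24 h and by 2.02-fold at 48 h, with 46.7 and 94.3 FPKM. Cdk2 and Cdk4 thus lay on opposite sides of the wild type level at 48 h. Ccnh, the cyclin of the kinase that activates these CDKs, was 1.83-fold lower at 48 h.

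Of the 8 other E2F and DP genes, 2 were called higher and 0 lower at 24 h, and 2 higher and 2 lower at 48 h, with a median log2 difference of 0.06 and -0.08. The shares called, 25% and 50%, were near those of all tested genes (27.6% and 56.8%). E2f3, the third activator of the subfamily, was 2.02-fold lower at 48 h, at 10.4 and 5.16 FPKM, on the side of E2f1 and opposite to E2f2. Tfdp2, a dimer partner of E2F, was 1.97-fold lower at 48 h. The repressors E2f6 and E2f7 were called higher at both times, E2f6 by 1.34-fold and 1.31-fold, and E2f7 by 1.43-fold at 24 h. At q under 0.01 the call of E2f7 at 24 h was kept, and that of E2f6 at 24 h and both calls at 48 h were lost. Of 7 genes of the MuvB core, which joins Rbl1 and Rbl2 in a repressor complex, and its partners, 0 were called at 24 h by the authors' test (their table holds no unadjusted p), and 0 higher and 3 lower at 48 h (42.9%, against 56.8% of all tested genes). The median of that list was -0.00041 at 24 h and -0.31 at 48 h, and Mybl2, a factor that activates cell cycle genes, was lower at 48 h, at 40.2 and 20.1 FPKM.

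Genes that E2F is known to drive in S phase were near the wild type level at 24 h and mostly lower at 48 h. Of 31, 2 were called higher and 3 lower at 24 h (16.1% called, below the 27.6% of all tested genes), with a median log2 difference of -0.02. At 48 h 2 were called higher and 18 lower (64.5%, against 56.8% of all tested genes, 25.7% higher and 31.0% lower). The median of the list was -0.48, beside -0.06 over all expressed genes, and 29 of 31 lay below 0. Pold1, a subunit of a replicative DNA polymerase, was lower by 1.46-fold at 24 h and by 2.52-fold at 48 h. Tk1, thymidine kinase, was 2.23-fold lower and Pole, another polymerase subunit, 2.32-fold lower at 48 h. The 2 called higher at each time were Pcna, the sliding clamp, and Slbp, the histone mRNA binding protein. Pcna stood at 357.9 and 545.4 FPKM at 24 h and at 366.2 and 673.7 at 48 h, and Slbp at 82.2 and 126.3 and at 80.2 and 126.4.

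Genes upstream of the D cyclins were also read. Of 14 expressed inputs to D cyclin transcription, 7 were called higher and 1 lower at 24 h, and 8 higher and 2 lower at 48 h, with a median log2 difference of 0.36 and 0.40. The shares called were 57.1% and 71.4%, against 27.6% and 56.8% of all tested genes. The list pools genes of unlike roles, among them Foxo1 and Foxo3, which had no call at either time. Its median therefore gives no direction of input to the D cyclins. The AP-1 genes Fos, Junb and Jun were 10.7-fold, 5.03-fold and 8.17-fold higher at 48 h. Egr1, a low gene of the same list, was called higher at 24 h, at 0.172 and 3.19 FPKM (authors' q = 0.000449). Kit, the receptor for stem cell factor, was called lower at both times, at 17.9 and 11.8 FPKM at 24 h (authors' q = 0.000831), when Myc had no call, and at 17.1 and 5.42 FPKM at 48 h. Of 7 expressed genes of D cyclin turnover, 0 were called higher and 2 lower at 24 h, and 2 higher and 3 lower at 48 h, or 28.6% and 71.4%, the first of which is near the share over all tested genes. Fbxo31, a ubiquitin ligase subunit for cyclin D1, was lower by 1.41-fold at 24 h and by 1.66-fold at 48 h. Usp2, a protease that removes ubiquitin from cyclin D1, was 1.40-fold lower at 24 h and stood at 2.97 and 0.955 FPKM at 48 h. In the other direction, Gsk3a of the same list was called higher at 48 h, at 45.4 and 63.8 FPKM (authors' q = 0.0109).

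**Figure D4:**
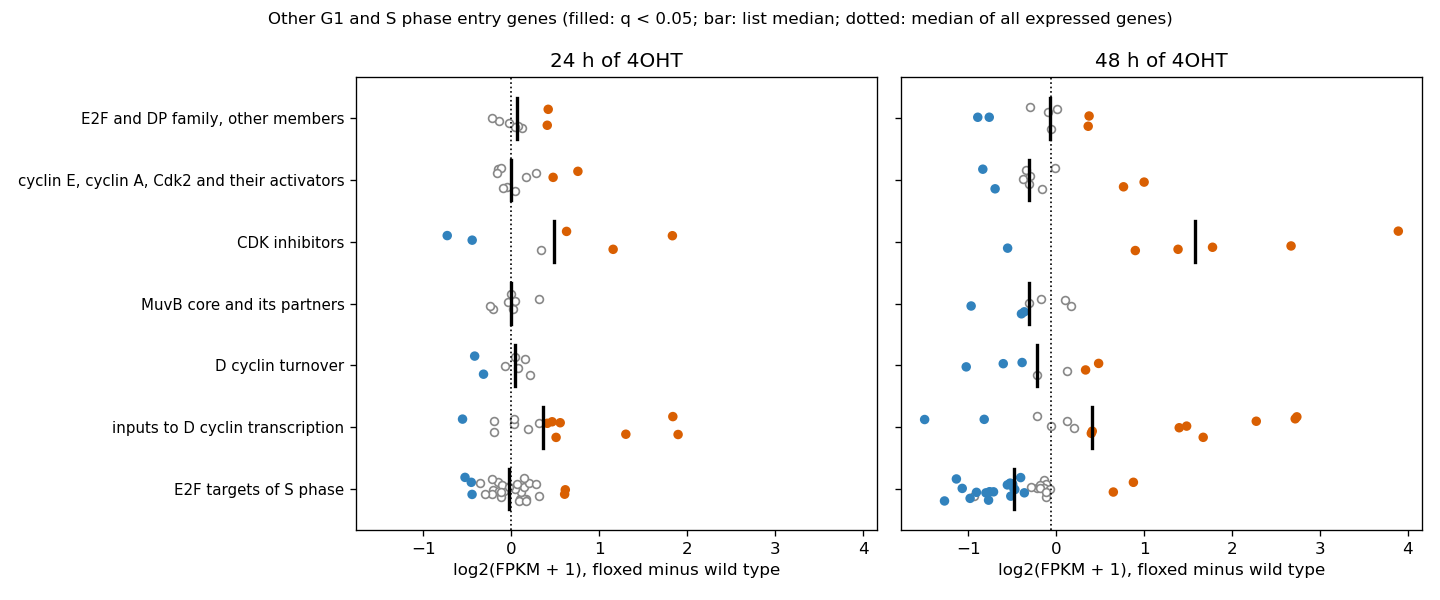
Log2(FPKM + 1) in floxed minus wild type cells (x axis) for the expressed genes of 7 lists (rows) at 24 h (left) and 48 h (right), 1 point per gene (filled: authors' q under 0.05, orange higher and blue lower), with the list median as a bar and the median of all expressed genes dotted. The CDK inhibitors have a median of 1.58 and the E2F targets of S phase a median of -0.48 at 48 h.

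E2f2 had the largest absolute log2 difference of the 10 genes at 48 h, and the genes with the most similar pattern to it were searched among 11157 other expressed genes. Likeness was the Euclidean distance between log2(FPKM + 1) profiles over the 4 groups, each centred on its mean. The nearest were Phlda1 (distance 0.151), the chemokine gene Ccl4 (0.183) and the protease inhibitor gene Slpi (0.202). Slpi stood at 31.7 and 63.5 FPKM at 24 h and at 33.8 and 248.1 at 48 h. With 4 values per gene the likeness is a description only.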

How the data were processed

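Poly(A) RNA libraries of 8 samples in 4 groups were used through 1 table. The submitters' processing notes name the build mm10 and the tools Bowtie2, Cufflinks (2.1) and Cuffdiff. The role of each tool, the annotation, strand handling and filters were not given in the sources used here. The authors' deposited columns are, per the file headers, 1 FPKM per gene and group, and for each time a q-value and a fold of floxed over wild type. The last fold column repeats the 24 h name and was read as 48 h, since it equals the 48 h FPKM ratio in 14820 of 14823 genes with both values above 0 (tolerance 0.1%). The q-value is the authors' test on 2 libraries per group, and no test was computed here.

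Total reads per library are not known. Over genes under 0.05 FPKM in both groups, the most common floxed over wild type ratio was 0.834 at 24 h (68 of 1274 genes within 0.002) and 1.07 at 48 h (41 of 995). If these are genes with 1 fragment in each group, which was not tested, they give the relative worth of a fragment. No interval or detection limit was computed. FPKM summed to between 653299 and 699193 per group.

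Genes that reached 1 FPKM in any group were taken as expressed (11158), without 27 names turned into date numbers. Tested genes are those with a q under 1. The 10 genes and the lists were chosen with earlier results of these data known, and 1 marker gene is not reported here. In each list, up to 3 called genes per time with the largest absolute log2 difference were named, and others where a count left few genes. Of these, Cdkn2a at 48 h, Cdkn2c, E2f7 at 48 h, Kit, Pcna and Slbp at 48 h and Myc were named after their values were seen. The same holds for Mpo and Cebpa at 48 h. Positions are from GENCODE M21 on GRCm38, the same assembly as mm10. Windows before the start are from RefSeq on GRCm38.p6. The code was tested on simulated data. Values were computed with Python 3.11.15, pandas 2.3.3 and numpy 2.4.6. Alternatives were the pseudocount (0.1 and 5), q under 0.01, a minimum of 1.5-fold, 3 other scalings and leaving out genes with a shared locus entry. Filters were 5 FPKM and none for the lists, and 1 and 5 FPKM for the 10 genes.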

Additional observations from a re-analysis of the deposited data

How the results depend on the processing

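No paired analysis was possible because the deposited columns hold 1 value per group, and for the same reason leaving out each duplicate was not run. The counts of the 10 genes called were within 1.5 times their main value in 15 of 16 alternatives. The exception was the count called lower at 24 h. It was 1 in place of 2 when at least 1.5-fold was also required, since E2f1 was 1.42-fold lower. Among the 16, a filter at 1 FPKM could change no count, since all 10 genes pass it. A filter at 5 FPKM left 3 in place of 4 called higher at 48 h, without the low gene Ccnd1. No log2 difference of the 10 genes changed direction under the 3 other scalings. A pseudocount changes the size of a difference and cannot change its direction. The log2 difference of Ccnd2 depended on the pseudocount, at -1.04 (pseudocount 5) at 24 h, and at -3.39 (0.1) and -1.30 (5) at 48 h. For Ccnd1 at 48 h it ranged from 0.17 to 1.10, and for E2f2 from 2.50 to 3.15. Rescaling the groups to the same sum moved the median log2 difference of all expressed genes at 48 h from -0.06 to -0.15, and trimmed-mean factors moved it to 0.0013. Of 112 alternative counts of list members called, 10 were outside 1.5 times the main value or at 0, and of 84 alternative list medians, 5 changed sign, all 5 within 0.17 of 0 at 24 h.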
